A study of Mus musculus with 8 samples.

Results

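The Hox genes are homeobox transcription factors that lie in 4 chromosomal clusters, Hoxa, Hoxb, Hoxc and Hoxd, and they were followed here in the adult mouse brain after fetal alcohol exposure. Members were the probe sets annotated with a single gene symbol of Hoxa, Hoxb, Hoxc or Hoxd followed by a number, taking the probe set with the highest mean for each gene. This gave 37 genes, each with 1 such probe set, out of 19938 genes named by a probe set with a single symbol. The arrays had 23410 probe sets with a gene symbol in all. The Hoxa cluster had 10 of them and the Hoxb, Hoxc and Hoxd clusters had 9 each.

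Male C57BL/6J mice were sampled at postnatal day 70 and their brain RNA was hybridised to Affymetrix mouse gene 1.0 ST arrays, which read a gene through probes spread along its transcript. The dams had been injected with ethanol (2 doses of 2.5 g/kg on each day) or with saline, either on gestational days 8 and 11 (early exposure) or on gestational days 14 and 16 (late exposure). Each of the 4 groups (early ethanol, early saline, late ethanol and late saline) had 2 arrays, and each array carried RNA pooled from whole brains of 3 males that were not littermates, so the 8 arrays are the replicates and the spread between single mice was not measured. All groups were raised in the same housing, and each exposure timing had its own saline control.

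Within a cluster the Hox genes are numbered from 1 to 13, and genes of the same number in different clusters are paralogs that arose by duplication of an ancestral cluster. During development, low-numbered genes are switched on first and reach into the hindbrain, while higher numbers follow in the spinal cord and the posterior body, an order known as collinearity. Each gene thereby helps to set the identity of a segment along the head-to-tail axis and of the motor neurons that form there. The forebrain and midbrain are patterned by other homeobox genes, such as Otx2 and Emx2, and lack Hox expression in the embryo. Retinoic acid and its receptors, Cdx factors and Egr2 turn the clusters on. Polycomb complexes keep them silent elsewhere, and Trithorax proteins keep them active. The clusters also hold microRNA genes, of which the miR-10 and miR-196 families are best known for targeting Hox transcripts.

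The mature microRNAs of the cluster genes on the array are shown because their genes are described with the Hox genes below, and because they fall into families by the seed (bases 2 to 8, in capitals), which pairs with the target. Sequences are from RefSeq on GRCm38.p6. The genes encoding miR-10a-5p (chr11:96317186-96317208, plus strand), miR-10b-5p (chr2:74726074-74726096, plus strand) and miR-196b-5p (chr6:52230129-52230150, minus strand) lie in the Hoxb, Hoxd and Hoxa clusters. miR-196a-5p has a copy in the Hoxb cluster (Mir196a-1, chr11:96265187-96265208, plus strand) and another in the Hoxc cluster (Mir196a-2, chr15:102973365-102973386, plus strand), where miR-615-3p also lies (chr15:103014969-103014990, plus strand).
miR-10a-5p: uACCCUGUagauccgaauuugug
miR-10b-5p: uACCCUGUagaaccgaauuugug
miR-196a-5p: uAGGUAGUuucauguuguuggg
miR-196b-5p: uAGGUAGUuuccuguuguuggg
miR-615-3p: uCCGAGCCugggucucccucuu
Counted from the 5' end, miR-10a-5p and miR-10b-5p differed by the single substitution U12A, and miR-196a-5p and miR-196b-5p by A12C. Both substitutions lie outside the seed, so each pair shares its seed (ACCCUGU and AGGUAGU).

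The promoters of Hoxd10 and Hoxa10 are shown because these paralogs of number 10 held, of the 37 genes, the highest late difference and the smallest late p-value (values below). The 250 bases before the annotated start are printed 5' to 3' on the gene's strand (RefSeq, GRCm38.p6), with CG dinucleotides in capitals. The Hoxd10 window (chr2:74691641-74691890, plus strand) held 20 CG dinucleotides. Hoxa10 had 2 annotated starts, and their windows held 7 (chr6:52240855-52241104, minus strand) and 20 (chr6:52234940-52235189, minus strand).
Hoxd10: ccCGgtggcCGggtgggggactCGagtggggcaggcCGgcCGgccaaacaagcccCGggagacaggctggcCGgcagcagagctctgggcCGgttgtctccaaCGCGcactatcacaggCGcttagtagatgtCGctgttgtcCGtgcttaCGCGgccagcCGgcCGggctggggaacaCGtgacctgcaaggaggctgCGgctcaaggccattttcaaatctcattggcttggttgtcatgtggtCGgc
Hoxa10, start with fewer CG: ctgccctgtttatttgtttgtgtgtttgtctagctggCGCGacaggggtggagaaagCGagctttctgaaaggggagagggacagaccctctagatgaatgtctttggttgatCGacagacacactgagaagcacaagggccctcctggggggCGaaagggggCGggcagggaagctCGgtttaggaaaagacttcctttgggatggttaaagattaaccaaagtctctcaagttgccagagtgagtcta
Hoxa10, start with more CG: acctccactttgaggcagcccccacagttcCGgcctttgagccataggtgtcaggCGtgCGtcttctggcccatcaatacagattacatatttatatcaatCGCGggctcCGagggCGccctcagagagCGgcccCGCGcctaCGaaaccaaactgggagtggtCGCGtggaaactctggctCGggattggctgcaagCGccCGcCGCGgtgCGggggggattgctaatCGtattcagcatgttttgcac
RefSeq promoter windows of 300 bases (250 before the start and 50 after) were at hand for 21 of the 37 genes, 23 windows in all. The number of CG dinucleotides in them had a median of 15 (4 to 45), against 7 over 32851 windows of 27025 genes. The motif TATAAA, searched on the gene's strand only, was in 1 of the 23 windows (4.35%), against 8.32% of all windows.

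The arrays of a timing were alike, with a lowest correlation of 0.993 between any 2 arrays in each timing, and medians over all probe sets of 7.10 to 7.14 (early) and 7.57 to 7.60 (late) on the deposited log2 scale. Levels of the 2 timings were therefore not set against each other. The tissue label was borne out by markers of both ends of the brain: the cortical factor Tbr1 and the glycine transporter gene Slc6a5, a marker of brainstem and spinal cord neurons, were far above the olfactory receptor level defined below in both timings (Tbr1 8.76 to 9.19 early and 9.93 to 10.10 late, Slc6a5 9.86 to 10.27 early and 9.76 to 9.83 late). Of 14 brainstem and spinal cord markers, 5 lay above that level in the early arrays and 2 in the late arrays, and Phox2a, Dbh and Chat did not. Markers of olfactory and nasal tissue stood apart in the early ethanol arrays. Bpifb9b, which encodes a secreted protein of the nasal epithelium, read 11.75 and 9.34 in early ethanol against 7.09 and 6.43 in early saline, whereas Omp, the marker of olfactory sensory neurons, was lower (6.75 and 7.05 against 7.39 and 7.73). The mean log2 level over 8 such markers was 8.26 and 7.50 in early ethanol, 7.20 and 7.35 in early saline, and 6.99 to 7.37 in the late arrays.

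Most Hox genes read within the range of the olfactory receptor genes, and at most 3 of the 37 stood above its upper part. Olfactory receptor (Olfr) genes are transcribed in the nasal epithelium and give a working level for unexpressed genes, and here a gene counted as above it when its mean in a timing (4 arrays) exceeded the 95th percentile of 1023 Olfr probe sets. This level was a log2 value of 6.45 in the early arrays and 7.46 in the late arrays. By definition, 52 of the 1023 Olfr probe sets also lay above it in each timing. Of the 8 olfactory and nasal markers, 5 lay above it early and 2 late. Whether some Olfr probe sets were themselves expressed, which would bear on this level and on Olfr centring, was not tested. In the early arrays 3 of 37 Hox genes (8.11%) were above it, compared with 58.9% of all probe sets with a symbol. These were Hoxb3, Hoxd10 and Hoxa4. In the late arrays Hoxb3 alone was above the late level, 1 of 37 (2.7%), compared with 51.7% of all probe sets. Just around the early threshold, Hoxa4 lay 0.02 above and Hoxb9 lay 0.03 below (a difference of -0.03), and around the late one Hoxd10 lay below at -0.04. At or below this level, an expressed gene and an unexpressed one could not be told apart on these arrays, and because the tissue was whole brain, fewer expressing cells and less RNA per cell could not be told apart either.

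**Figure D1:**
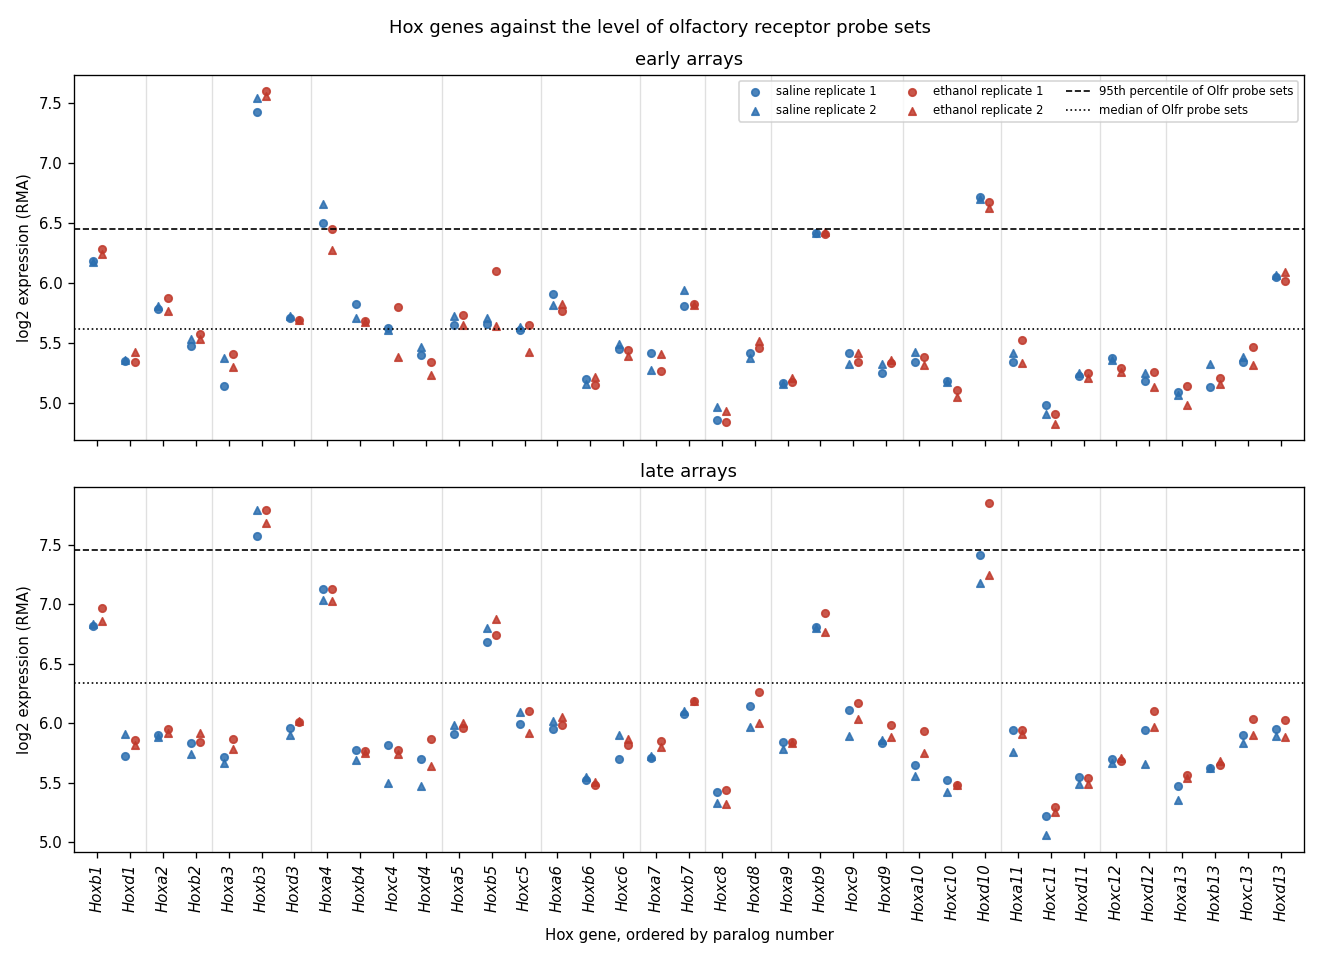
Log2 expression of the 37 Hox genes in the 4 early arrays (top) and the 4 late arrays (bottom), ordered by paralog number, with each point 1 array (blue saline, red ethanol, circle replicate 1, triangle replicate 2); the dashed line is the 95th percentile of 1023 Olfr probe sets and the dotted line their median. Hoxb3 is above the dashed line in every array, while most genes sit near or under the dotted line in both timings.

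Hoxb3, which takes part in patterning the caudal hindbrain, was the one gene above the level of each array in all 8 arrays. It read 7.60 and 7.56 in early ethanol against 7.43 and 7.54 in early saline, and 7.79 and 7.68 in late ethanol against 7.58 and 7.79 in late saline. The early ethanol arrays were both above the early saline arrays, and the late groups overlapped. Its mean exceeded those of 99.5% of the Olfr probe sets in the early arrays and 97.7% in the late arrays. The ethanol minus saline difference in log2 was 0.10 (SE 0.10, 95% CI -0.13 to 0.32) early and 0.05 (95% CI -0.17 to 0.28) late, which limma did not separate from 0 (unadjusted p = 0.354 and 0.594, adjusted p = 1 for both).

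Hoxd10, which with its paralogs sets lumbar motor neuron and hindlimb identity, exceeded the means of 97.5% of the Olfr probe sets in the early arrays and 94.4% in the late arrays. It was above the array's own 95th percentile in all 4 early arrays and in 2 of the late arrays. Early ethanol read 6.68 and 6.63 against 6.72 and 6.71 in saline, so ethanol was lower without overlap by a small margin (difference -0.06, SE 0.18). Late ethanol read 7.85 and 7.24 against 7.41 and 7.18, and there the high ethanol array was well above the other 3 arrays. The late difference of 0.25 (95% CI -0.15 to 0.65) was the highest of the 37 genes but did not pass the test (limma, unadjusted p = 0.191), and it became -0.05 without late ethanol replicate 1 and 0.55 without late ethanol replicate 2 (unadjusted p = 0.0023).

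Hoxa4, a gene of cervical segment identity, was the last of the 3 above the early level, with 95.2% of the Olfr probe sets below it, and it was above the array's own percentile in 3 of the 4 early arrays. Early ethanol read 6.45 and 6.28 and early saline 6.50 and 6.66. Both ethanol arrays were below both saline arrays, with a difference of -0.21 (SE 0.10, 95% CI -0.44 to 0.01), the lowest of the 37 genes (limma, unadjusted p = 0.0585, adjusted p = 1). Without early ethanol replicate 1 it was -0.30 (unadjusted p = 0.0364), and without early saline replicate 1 it was -0.29 (unadjusted p = 0.0405). In the late arrays the values were 7.13 and 7.03 with ethanol and 7.13 and 7.03 with saline, below the Olfr level in all 4, with a difference of -0.0016.

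By position along the axis, the Hox genes kept a similar order in both timings when each gene was placed among the Olfr probe sets of its own arrays. The share of Olfr probe sets with a lower mean had a median of 26.2% over the 37 genes in the early arrays and 16.7% in the late arrays. Across the 37 genes the early and late shares correlated (Spearman's rho = 0.83), which is a description of genes read by the same probes and not of independent replicates. In the early arrays the median share was 60.7% for numbers 1 to 3 (7 genes), 47.6% for numbers 4 to 8 (14 genes) and 17.8% for numbers 9 to 13 (16 genes). In the late arrays these were 18.0%, 17.2% and 15.2%, so the step from low to high numbers was seen in the early arrays and was small in the late ones. The Olfr range itself differed between the timings (median 5.62 early and 6.34 late). These shares therefore do not show a change in Hox genes between the timings. The Hoxb cluster had the highest median share in both timings, 68.1% and 34.7%, with 24.3% and 15.2% for Hoxa, 23.1% and 7.43% for Hoxc, and 22.7% and 18.1% for Hoxd. Probes differ in their own background, so these shares rank probe sets against the Olfr range and do not rank the amount of RNA between genes.

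**Figure D2:**
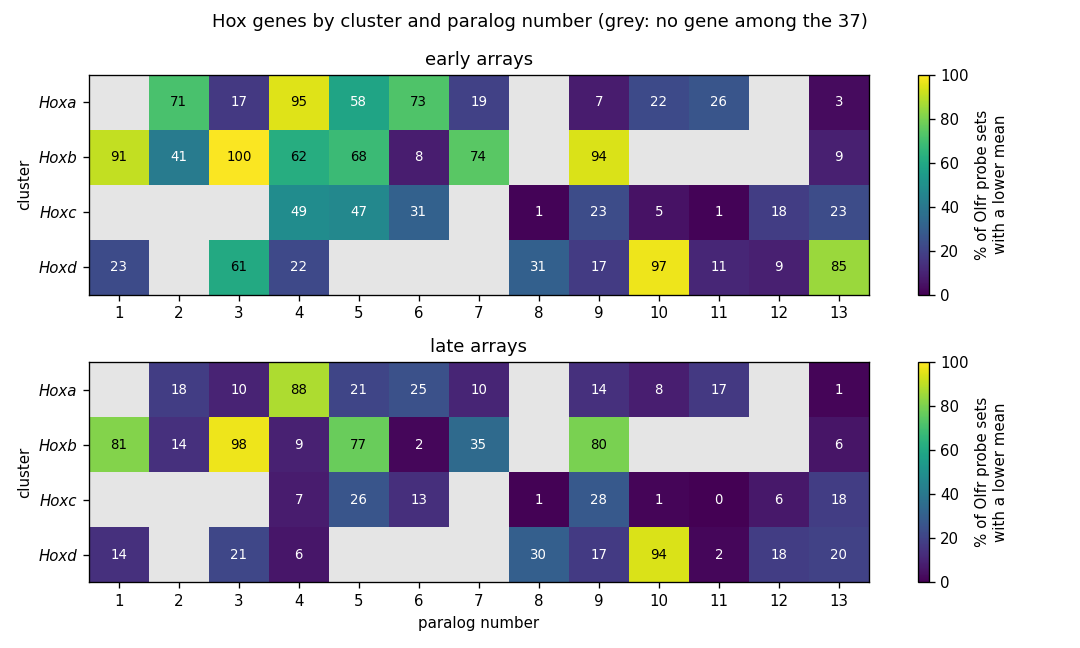
Each square is a Hox gene at its cluster (vertical axis) and paralog number (horizontal axis), and the number and colour give the percentage of the 1023 Olfr probe sets with a lower mean in the same arrays, rounded to whole percent; grey squares hold none of the 37 genes. Values above 90 stand at Hoxb1, Hoxb3, Hoxa4, Hoxb9 and Hoxd10 in the early arrays, and at Hoxb3 and Hoxd10 in the late arrays.

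No Hox gene differed between ethanol and saline after Benjamini-Hochberg adjustment in either timing, nor did any other of the 23410 probe sets (limma, adjusted p under 0.05 for 0% of them in the early contrast, 0% in the late contrast and 0% for the difference between timings). At an unadjusted p under 0.05, 0 of 37 Hox genes passed in the early contrast (1.71% of all probe sets did), 1 of 37 passed in the late contrast (2.49% of all) and 0 of 37 passed for the early effect minus the late effect (2.06% of all). With a change of at least 1.2-fold also required, which is 0.26 on the log2 scale, 0 of 37 passed in the early contrast (0.923% of all) and 0 of 37 in the late contrast (1.16% of all). These shares of Hox genes were at or below those of all probe sets, apart from the unadjusted late count, where 1 of 37 is 2.7%. Past both thresholds, 1 Hox gene was counted early when either early ethanol array or early saline replicate 1 was left out, and 2 late without late ethanol replicate 2 or late saline replicate 1. The 95% confidence interval of a Hox difference had a median half-width of 0.20. It lay within 0.5 of 0 on the log2 scale for 36 of 37 genes in the early contrast, with Hoxb5 reaching 0.52, and for 36 of 37 in the late contrast, with Hoxd10 reaching 0.65. With 2 arrays per group, differences inside these intervals could not be told from 0.

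**Figure D3:**
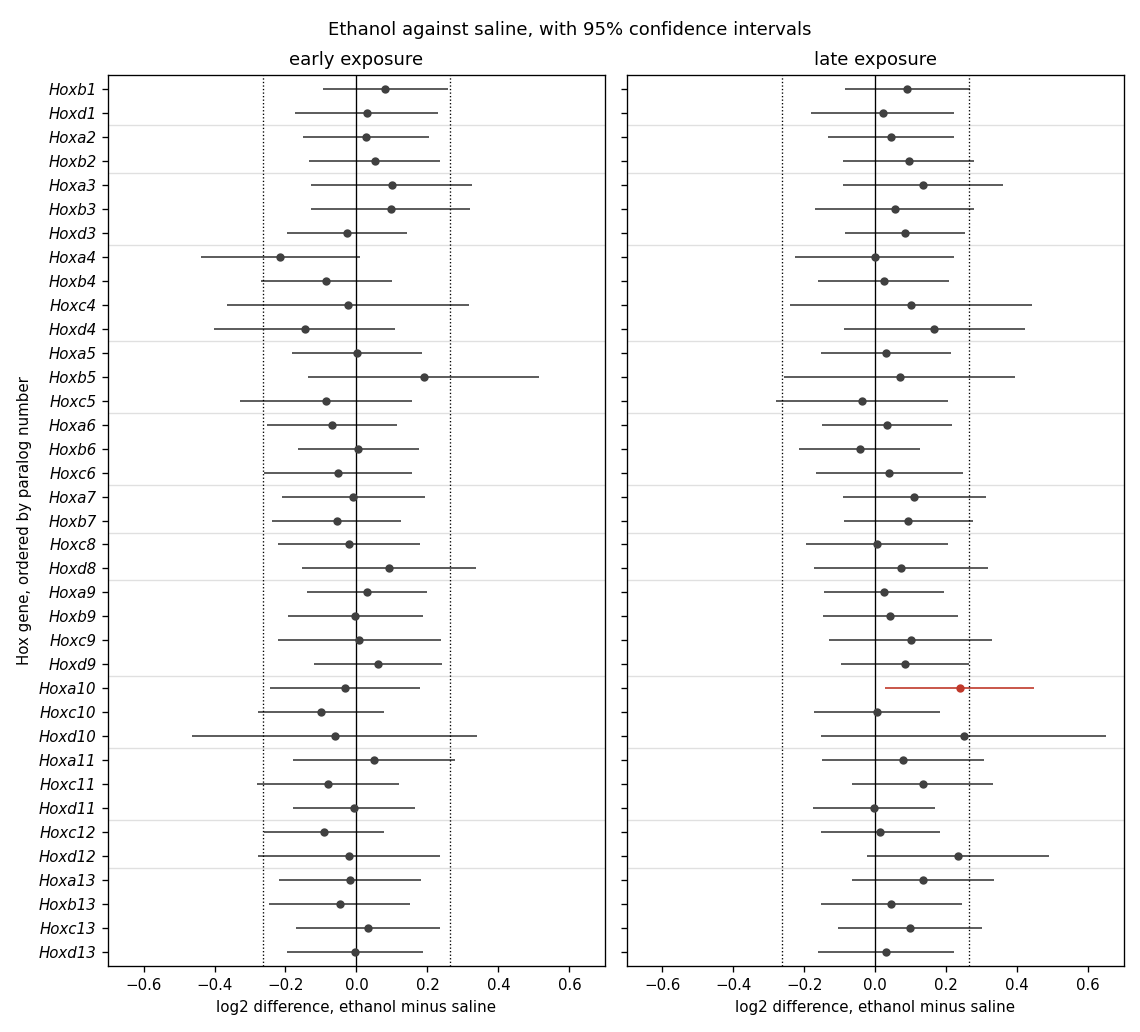
Log2 difference between ethanol and saline for each of the 37 Hox genes in the early (left) and late (right) exposure, with 95% confidence intervals from limma; dotted lines mark a 1.2-fold change and red marks the gene with an unadjusted p under 0.05. In the late panel 33 of 37 points are above 0, and the interval of Hoxa10 is the only one in either panel that leaves out 0.

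The gene that passed the unadjusted threshold was Hoxa10, a paralog of Hoxd10 that is also required in the uterus and blood lineages. Late ethanol read 5.93 and 5.75 and late saline 5.65 and 5.56, so the groups did not overlap. The difference was 0.24 (SE 0.09, 95% CI 0.03 to 0.45, limma unadjusted p = 0.0314, adjusted p = 1), short of 1.2-fold. Only 8.31% of the Olfr probe sets lay below its late mean, so it read in the lowest part of the Olfr range. It was 0.15 without late ethanol replicate 1 and 0.19 without late saline replicate 2, neither past the threshold (unadjusted p = 0.189 and 0.139). It also did not pass in limma on the 4 late arrays alone (unadjusted p = 0.0582), in an unmoderated test of those arrays (unadjusted p = 0.145) or with Olfr centring (0.21, unadjusted p = 0.209). In the early arrays it read 5.39 and 5.32 with ethanol and 5.34 and 5.43 with saline, a difference of -0.03 with overlapping groups. The early effect minus the late effect was -0.27 (limma, unadjusted p = 0.0698).

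In the early contrast the Hox genes were divided in direction: 15 of 37 were higher and 22 lower with ethanol, with differences from -0.21 to 0.19. The median was -0.0087, against -0.020 over all probe sets and -0.011 over the Olfr probe sets. It turned to 0.014 when each array was centred on its median and to 0.0093 after quantile normalization over all 8 arrays, with 22 of 37 genes then higher in each. The early groups did not overlap, with ethanol higher, for 6 of 37 genes (16.2%, against 7.5% of all probe sets), namely Hoxa9, Hoxb1, Hoxb2, Hoxb3, Hoxd8 and Hoxd9. Ethanol was lower without overlap for 9 of 37 (24.3%, against 18.9% of all): Hoxa4, Hoxb4, Hoxd3, Hoxd4, Hoxc6, Hoxc10, Hoxd10, Hoxc11 and Hoxc12. Among Olfr probe sets the shares were 9.78% and 19.6%.

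In the late contrast 33 of 37 Hox genes were higher with ethanol and 4 were lower, with differences from -0.04 to 0.25 and a median of 0.068. Over all probe sets 11071 were higher and 12330 lower, with a median of -0.0067. The groups did not overlap, with ethanol higher, for 13 of 37 Hox genes (35.1%, against 12.7% of all): Hoxb1, Hoxa2, Hoxb2, Hoxa3, Hoxd3, Hoxa7, Hoxb7, Hoxd9, Hoxa10, Hoxc11, Hoxd12, Hoxa13 and Hoxb13. Hoxb6 was the only gene lower without overlap (2.7%, against 15.7% of all). Among Olfr probe sets the late shares were 8.90% higher and 2.83% lower without overlap.

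Low readings in general leaned the same way in the late contrast as deposited. Among the 11304 probe sets at or below the late Olfr level, 68.3% were higher with ethanol, with a median of 0.040, and among Olfr probe sets 651 were higher and 372 lower, with a median of 0.034. The median of the Olfr probe sets was 6.52 in late ethanol replicate 1, against 6.19, 6.27 and 6.38 in the other late arrays. The Hox median was 5.95 in that array and 5.89, 5.84 and 5.84 in the others. Without that array, 26 of 37 Hox genes were higher and the median was 0.037, while 47.4% of the low probe sets were higher (median -0.0058). Without late saline replicate 2, 24 of 37 were higher (median 0.051), and without late ethanol replicate 2 or late saline replicate 1, 36 and 30 of 37 were (medians 0.092 and 0.067). With each array centred on its median, 35 of 37 were higher (median 0.089), and with each array centred on its Olfr median, 27 of 37 (median 0.042). After quantile normalization 23 of 37 were higher with a median of 0.032, while 50.4% of the low probe sets were higher (median 0.0008). How far the level of low readings accounts for the Hox direction was not tested beyond these values.

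Taken by paralog number, the low-numbered genes were those of the hindbrain. Hoxb1, which specifies facial motor neurons, read 6.29 and 6.25 in early ethanol against 6.19 and 6.18 in saline, and 6.97 and 6.86 in late ethanol against 6.82 and 6.83. Ethanol was higher without overlap in both timings, by 0.08 (unadjusted p = 0.321) and 0.09 (unadjusted p = 0.275), and neither passed the test. Hoxb2, which acts with Hoxb1 in the hindbrain, had the same pattern by very narrow margins. It read 5.578 and 5.540 against 5.478 and 5.536 early, and 5.838 and 5.922 against 5.835 and 5.738 late. Hoxa2, the selector gene of the second pharyngeal arch, differed by 0.03 early and 0.04 late, and Hoxd1, which acts in pain-sensing neurons, by 0.03 and 0.02. Of number 3, Hoxa3, needed for the thymus and parathyroid, differed by 0.10 and 0.13, and Hoxd3, which patterns the first cervical vertebra, by -0.03 and 0.08. Over the 7 genes of numbers 1 to 3 the early median was 0.05 with 6 of 7 higher, and the late median was 0.08 with 7 of 7 higher. Of all 23410 probe sets, 9417 were higher early and 11071 higher late. Only Hoxb3 of the 7 lay above the Olfr level. Among the probe sets at or below that level, 39.8% were higher early and 68.3% late.

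The 4 genes of number 4, which border the hindbrain and spinal cord, were all lower with early ethanol, with a median of -0.12 and no overlap for 3 of 4. Over all probe sets 13988 of 23410 were lower early, and 18.9% were lower without overlap. All 4 kept a negative sign when arrays were centred on their median, centred on their Olfr median or quantile normalized. For Hoxc4 that sign says little, since its difference as deposited was -0.02 (SE 0.15), and it became 0.18 without early ethanol replicate 2. Besides Hoxa4, Hoxd4 read 5.35 and 5.24 against 5.41 and 5.47 in saline, a difference of -0.15 (limma, unadjusted p = 0.225). Hoxb4, known for its part in blood stem cells, read 5.69 and 5.68 against 5.83 and 5.71 (-0.09), and Hoxc4 read 5.80 and 5.39 against 5.63 and 5.61 (-0.02), with overlap. Late, Hoxd4 read 5.87 and 5.64 with ethanol and 5.70 and 5.48 with saline (0.17, unadjusted p = 0.172), and the median of number 4 was 0.06. The early effect of Hoxd4 minus the late effect was -0.31 (limma, unadjusted p = 0.081), the lowest of the 37 genes.

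Numbers 5 to 8 cover the genes of the neck and thorax. Hoxb5, which acts in neural crest of the gut, had the highest early difference, 0.19 (unadjusted p = 0.216), and this rested on 1 array. It read 6.11 and 5.64 with early ethanol and 5.66 and 5.71 with saline. The difference was -0.04 without early ethanol replicate 1 and 0.42 without early ethanol replicate 2 (unadjusted p = 0.0069). In the late arrays Hoxb5 read 6.74 and 6.88 against 6.68 and 6.80 (0.07). Hoxa5, required for lung and respiratory motor neurons, differed by 0.0005 early and 0.03 late, and its paralog Hoxc5 by -0.09 and -0.04. The genes of number 6 ranged from -0.07 to 0.01 early and from -0.04 to 0.04 late. Hoxa7 and Hoxb7 were each higher with late ethanol without overlap, by 0.11 (5.85 and 5.80 against 5.71 and 5.72) and 0.09 (6.18 and 6.18 against 6.08 and 6.10). They did not pass the test in limma (unadjusted p = 0.245 and 0.275). Both did pass in an unmoderated test of the 4 late arrays (unadjusted p = 0.0405 and 0.0147), short of 1.2-fold. Hoxc8, which organises motor neurons of the forelimb, read between 4.85 and 4.97 early and between 5.32 and 5.44 late, with only 0.78% and 0.68% of the Olfr probe sets below it.

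Numbers 9 to 13 belong to the thorax, lumbar cord, limbs and genital region. Hoxb9 read 6.41 to 6.43 in all 4 early arrays, just under the level, and 6.76 to 6.93 in the late arrays, with no difference above 0.04 in size. Hoxc9, which sets thoracic motor neuron identity, differed by 0.01 and 0.10, and Hoxd9 by 0.06 and 0.08, with ethanol higher without overlap in both timings for Hoxd9. All 3 genes of number 10 were lower with early ethanol, with a median of -0.06, and kept that direction under all 3 rescalings, but Hoxa10 became 0.0036 without early ethanol replicate 2 and 0.0094 without early saline replicate 2. Late, their differences were 0.24 for Hoxa10, 0.25 for Hoxd10 and 0.0045 for Hoxc10. Hoxc11 read 4.909 and 4.833 against 4.988 and 4.913 early, also a very narrow margin. Late it read 5.29 and 5.25 against 5.22 and 5.06, and early minus late was -0.21 (limma, unadjusted p = 0.121).

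Hoxd12 and Hoxa13, which shape the limb and digits, had the next smallest late p-values after Hoxa10. Hoxd12 read 6.10 and 5.97 with late ethanol and 5.94 and 5.66 with saline. The groups did not overlap, and the difference of 0.23 (limma, unadjusted p = 0.0705) was 0.38 without late saline replicate 1 (unadjusted p = 0.0122). Hoxa13 read 5.56 and 5.54 against 5.47 and 5.36, a difference of 0.13 (unadjusted p = 0.161). Its paralogs Hoxb13, a prostate and tail gene, Hoxc13, which controls hair keratins, and Hoxd13, a digit gene, differed by 0.05, 0.10 and 0.03 late and by -0.05, 0.03 and -0.00425 early. Late medians by number were 0.24 for number 10, 0.12 for number 12 and 0.10 for number 7, and those of the other numbers lay between 0.03 and 0.08.

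Genes that lie among or beside the Hox genes read as low as they did. None of 9 noncoding genes of the clusters was above the Olfr level in either timing. Mir196b, which encodes miR-196b-5p between Hoxa9 and Hoxa10, read 6.41 and 6.07 in late ethanol against 6.04 and 5.81 in late saline, higher without overlap by 0.32 (SE 0.13, limma unadjusted p = 0.0344, adjusted p = 1). It was the only one of the 9 past the unadjusted threshold and 1.2-fold, and it was 0.14 without late ethanol replicate 1 (unadjusted p = 0.26) and 0.20 without late saline replicate 2 (unadjusted p = 0.208). Mir196b also did not pass in limma on the 4 late arrays alone (unadjusted p = 0.0703) or in an unmoderated test of those arrays (unadjusted p = 0.267). With Olfr centring it did not pass either (limma, unadjusted p = 0.0965). Past both thresholds late were 1.16% of all probe sets. The copies for miR-196a-5p, with the same seed, differed by 0.27 (Mir196a-1) and 0.21 (Mir196a-2) in the same direction without passing. Mir10a read 5.38 and 5.02 in early ethanol against 5.47 and 5.48 (-0.27, unadjusted p = 0.0682), and -0.45 without early ethanol replicate 1 (unadjusted p = 0.0087). Mir10b, with the same seed, differed by -0.10 early and -0.05 late, and Mir615 by -0.16 and 0.13. In an unmoderated test of the 4 early arrays Mir10b passed the unadjusted threshold (unadjusted p = 0.0496), short of 1.2-fold. Such probe sets can read the precursor transcript, so the values are not levels of the mature microRNA. Of the 9, 8 were lower early (median -0.10) and 7 were higher late (median 0.09). Of all 23410 probe sets, 13988 were lower early and 11071 higher late. Among the probe sets at or below the Olfr level of the timing, 39.8% were higher early and 68.3% higher late.

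The 6 homeobox genes at the cluster ends or in the related ParaHox cluster (Evx1, Evx2, Gsx1, Gsx2, Pdx1 and Mnx1) were also all below the Olfr level. All 6 were higher with late ethanol, with a median of 0.08, and none passed the test. Among all probe sets at or below the late Olfr level, 68.3% were higher. The smallest p-values were those of Pdx1, a pancreas gene (0.14, unadjusted p = 0.212), and Gsx1 (0.10, unadjusted p = 0.256), both late.

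The partners and regulators of the Hox genes were mostly expressed. Of the TALE homeobox cofactors, which bind DNA together with Hox proteins, 7 of 8 were above the Olfr level in both timings. Meis2 was the single one past 1.2-fold, reading 10.82 and 10.97 in early ethanol against 11.10 and 11.29 in early saline (-0.30, SE 0.09, limma unadjusted p = 0.012, adjusted p = 1). Pbx3, chosen after its values were seen, read 10.19 and 10.24 against 10.49 and 10.44 (-0.26, unadjusted p = 0.0095). In both genes each ethanol array was below both saline arrays, as in 18.9% of all probe sets. Lower with early ethanol were 7 of the 8 cofactors (median -0.06), against 13988 of all 23410 probe sets (median -0.020). In the late arrays 0 of 8 passed, with Meis2 at 0.02 and Pbx3 at -0.02. Without early ethanol replicate 1 neither passed (Meis2 -0.22, unadjusted p = 0.0923, and Pbx3 -0.23, unadjusted p = 0.0566), and Meis2 did not without early saline replicate 2 (-0.21, unadjusted p = 0.0875) or, like Pbx3, with Olfr centring (unadjusted p = 0.0935 and 0.163). Meis2 also did not pass in an unmoderated test of the 4 early arrays (unadjusted p = 0.130). Beside these early values stand the nasal and olfactory markers given above. Past both thresholds in the same arrays, 3 were higher and 2 lower (5 of 8), against 0.923% of all probe sets. None of these 5 markers passed in the unmoderated test (smallest unadjusted p = 0.0944, for Bpifb9b). Their part in the result was not tested. Of these 5, Obp2a, an odorant-binding protein gene, read 8.32 and 5.63 with early ethanol against 5.49 and 5.28 (1.59, unadjusted p = 0.0437), and was 0.24 without early ethanol replicate 1 (unadjusted p = 0.086).

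Of 12 upstream regulators, 6 were above the Olfr level early and 3 late, among them the retinoic acid receptor gene Rarb and the retinoic acid synthesis gene Aldh1a2 in both timings. None had an unadjusted p under 0.05, and the smallest p-values were those of Gdf11, a growth factor that starts posterior Hox expression (-0.14 early, unadjusted p = 0.142), and Cdx2 (0.15 late, unadjusted p = 0.174). Of 17 chromatin regulators, 16 were above the level in both timings. Eed, a core subunit of the Polycomb complex that deposits the repressive histone mark, read 8.21 and 8.20 in early ethanol against 8.53 and 8.41, the only one past both thresholds (-0.26, limma unadjusted p = 0.0411, adjusted p = 1). Its call was lost without any 1 of 3 arrays, early ethanol replicate 1 (unadjusted p = 0.105), early ethanol replicate 2 (0.109) or early saline replicate 1 (0.181). The call was also lost in limma with median centring (unadjusted p = 0.0640), a replicate block (0.0658) or Olfr centring (0.180). It was lost too in an unmoderated test of the 4 early arrays (unadjusted p = 0.0501). Past both thresholds early were 0.923% of all probe sets. Another probe set of Eed, which read lower (mean 5.15), differed by -0.08 and did not pass (unadjusted p = 0.343). In this list 12 of 17 were lower early and 15 of 17 lower late, with medians of -0.06 and -0.05. Of all 23410 probe sets, 13988 were lower early and 12330 lower late, with medians of -0.020 and -0.0067.

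Of 10 forebrain and midbrain factors, 6 were above the level early and 5 late. Otx2, which defines the forebrain and midbrain in the embryo, read 8.00 and 8.30 in late ethanol against 8.47 and 8.40 in late saline (-0.29, limma unadjusted p = 0.0249, adjusted p = 1), and -0.14 without late ethanol replicate 1 (unadjusted p = 0.184) and -0.25 without late saline replicate 1 (unadjusted p = 0.106). Otx2 also did not pass in limma on the 4 late arrays alone (unadjusted p = 0.0532) or in an unmoderated test of those arrays (unadjusted p = 0.200). With Olfr centring it did not pass either (limma, unadjusted p = 0.105). Its early difference was 0.01. No other member of that list passed both thresholds in either timing. Past both were 0.923% of all probe sets early and 1.16% late.

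**Figure D4:**
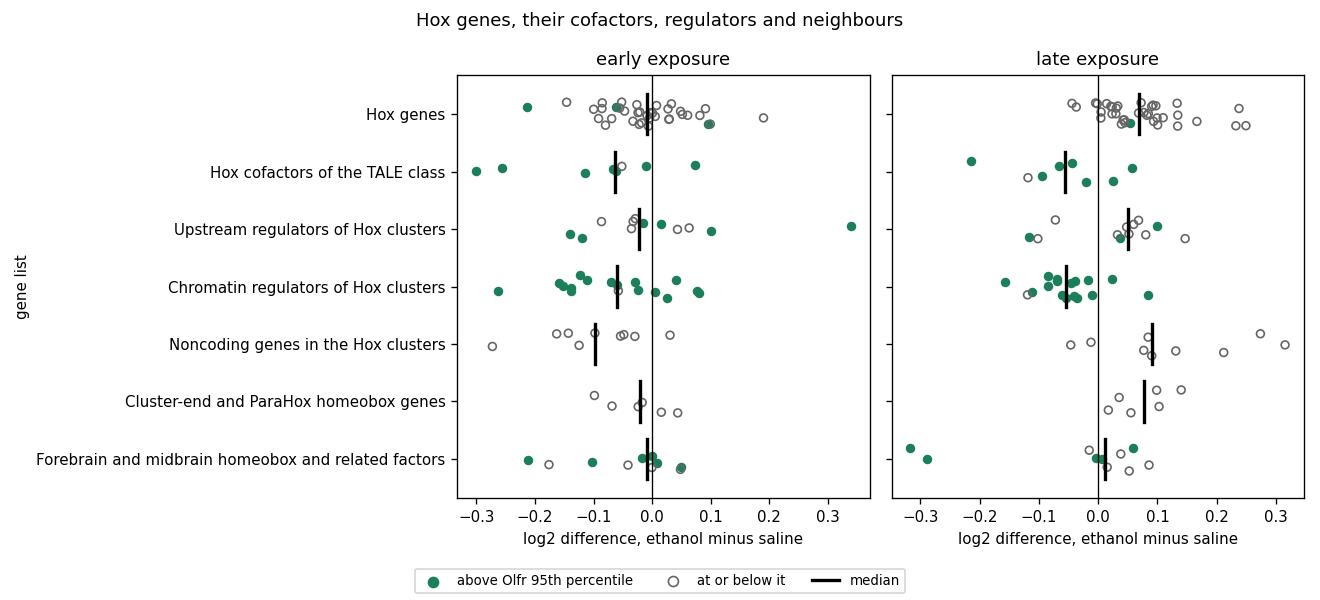
Log2 difference between ethanol and saline for the 37 Hox genes and 6 lists of related genes in the early (left) and late (right) exposure; each point is a gene, filled where its mean is above the Olfr 95th percentile of that timing, and black bars are medians. The Hox genes, the noncoding cluster genes and the cluster-end genes are mostly open points and lie mostly to the right of 0 in the late panel, while the cofactors and chromatin regulators are mostly filled.

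Brainstem and spinal cord markers were given as the cells in which adult Hox expression would be looked for. Their mean log2 level over 14 genes was 6.65 and 6.53 in early ethanol, 6.50 and 6.55 in early saline and 6.89 to 6.94 in the late arrays. Higher with ethanol were 10 of the 14 early and 9 late (median 0.03 in each), against 9417 and 11071 of all 23410 probe sets. What part this had in the Hox values was not tested. Only Tph2, the serotonin synthesis enzyme of the raphe, passed both thresholds, in the early arrays (6.89 and 6.66 against 6.42 and 6.47, 0.33, limma unadjusted p = 0.0102, adjusted p = 1). It was 0.21 without early ethanol replicate 1 (unadjusted p = 0.0928) and did not pass with Olfr centring (unadjusted p = 0.0712). Tph2 also did not pass in an unmoderated test of the 4 early arrays (unadjusted p = 0.109). Of 10 fibroblast and meningeal markers, 8 were lower early and 8 higher late. Only Dcn of the 10 passed both thresholds, lower with early ethanol (-0.31, limma, unadjusted p = 0.0194). In the unmoderated test Dcn did not pass (unadjusted p = 0.0565). Dcn did not pass without early ethanol replicate 1 (-0.25, unadjusted p = 0.113), without early saline replicate 1 (-0.28, unadjusted p = 0.0872) or with Olfr centring (unadjusted p = 0.115), and its part in any Hox value was not tested. Of 5 blood markers none passed, and 2 were above the Olfr level early and 1 late. Past both thresholds early were 0.923% of all probe sets. The probe set annotated to both Hoxb8 and Hoxb7 fell outside the rule. Its mean was below the Olfr level in both timings and above 93.0% and 85.6% of the Olfr probe sets, and it differed by -0.05 early and 0.16 late without passing the test.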

How the data were processed

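RNA was pooled from 3 whole brains per array and hybridised to Affymetrix mouse gene 1.0 ST arrays. The values are log2 expression as deposited by the authors, who summarised probes into probe sets by robust multi-array averaging with quantile normalisation and an adjustment for GC content in Partek (version 6.6 in the submitters' processing notes). The genome build of the probe design was not given in the sources used here. The array medians differed far more between timings than within them, so the timings appeared to have been normalised apart. Gene symbols were those of the platform annotation: of 35556 probe sets, 21789 had 1 symbol, 1621 several and 12146 none.

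The 23410 probe sets with a symbol were fitted with limma (version 3.58.1, R 4.3.3), using 1 mean per group over all 8 arrays, and p-values were adjusted by Benjamini-Hochberg over all of them. Thresholds were an unadjusted p under 0.05 and a 1.2-fold change, as in the study's methods, and the adjusted p. No filter on low values was used. Counting depth does not apply to arrays, and 2 arrays per group limit the precision. Per the study's methods a pool held non-littermates and each litter gave at most 1 animal, so arrays differ as pools of separate litters. In limma the spread of a gene was pooled over the 4 groups and drawn toward the typical spread of all probe sets. A p-value thus does not measure the spread of that gene's own pools alone. For Hoxb7 the late SDs were 1.7e-04 (ethanol) and 0.016 (saline), and the SE of the late difference was 0.079. The fit was tested on simulated data with known changes.

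Named genes were the Hox genes above the Olfr level, the 3 with the smallest p per contrast, all cluster microRNA genes and, of each other list, members past both thresholds or else the 2 with the smallest p. Hox genes were also grouped by cluster and by number. The members and lists were chosen with earlier results of these data known. The lists were Hox cofactors, upstream regulators, chromatin regulators, noncoding cluster genes, cluster-end and ParaHox genes, forebrain and midbrain factors, and markers of brainstem and spinal cord neurons, fibroblasts and meninges, blood, and olfactory and nasal tissue. For each, the probe set with the highest mean was used. Alternatives were other Olfr percentiles, other scalings, fits within a timing, an unmoderated test, an intensity trend, a filter on low values, all probe sets, a replicate block and leaving out each array. Centring on the Olfr median and crossed numbers were added after seeing the data. Figures were drawn with matplotlib 3.10.9.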

Additional observations from a re-analysis of the deposited data

Results flagged for a closer look

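The following genes had early and late ethanol effects that differed at an unadjusted p under 0.05 (limma, early minus late in log2), and each had an adjusted p of 0.9996. None of the 37 Hox genes did so. The Hox cofactor Meis2 had a difference of -0.33 (SE 0.13, unadjusted p = 0.0386), with effects of -0.30 early and 0.02 late. Tph2 had a difference of 0.45 (unadjusted p = 0.0125), with 0.33 early (0.21 without early ethanol replicate 1) and -0.12 late. Of the olfactory and nasal markers, Omp had a difference of -0.69 (unadjusted p = 0.00802), Bpifb9a of 2.62 (unadjusted p = 0.0141) and Bpifb9b of 4.11 (unadjusted p = 0.00248). In early ethanol, Bpifb9a read 10.84 in replicate 1 and 8.51 in replicate 2, against 7.22 and 7.14 in early saline.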

How the results depend on the processing

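Of the values of the summary results under the alternatives, 17 moved and 69 did not, counting a value as moved when a count changed by over 1.5 times or a median by more than the SD between arrays (0.025 early, 0.030 late). The early median, near 0, changed sign within that SD. Genes past an unadjusted p under 0.05 with all arrays and values as deposited kept their direction under every alternative run. With the 99th percentile of the Olfr probe sets as the level, 1 Hox gene was above it early and 0 late. With their median, 13 were above it early and 6 late. Quantile normalization over all 8 arrays gave a late median of 0.032. The number of Hox genes with an unadjusted p under 0.05 for early minus late was 0, but 2 with an intensity trend in limma. Leaving out 1 array at a time gave 0 to 3 such genes, 0 to 1 past both thresholds early and 0 to 2 late, with early medians from -0.040 to 0.0044 and late medians from 0.037 to 0.092. The counts were highest, at 3 for early minus late and 2 for late, without late ethanol replicate 2. For early minus late, 2 genes passed without late saline replicate 1 and 1 without early ethanol replicate 2. Where 1 array was left in a group, its spread was taken to equal that of the other groups.

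The labels give replicate numbers without saying what they share. Deviations of same-numbered arrays correlated at 0.466 early and -0.464 late, and there were 2 pairs per timing. With a replicate block in the fit the early and late counts past both thresholds were 0 and 0, and 1 gene passed for early minus late. With the late numbers crossed, the block also gave 0 and 0. Hoxd12 passed with the block (late, unadjusted p = 0.0492). Besides Hoxa7 and Hoxb7 late, Hoxc12 passed in the unmoderated test within a timing (early, unadjusted p = 0.0376), short of 1.2-fold.

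Of the single Hox values, 1017 kept their direction and side of the threshold, 93 changed sign without being called, 11 newly passed and 5 no longer passed. Removing the lowest 25% of probe sets left 8 of the 37 Hox genes. Signal near the Olfr level and 2 arrays per group are the limits. The causes of these changes were not tested.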
